A study of Oryctolagus cuniculus with 9 samples.

Results

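Heat shock proteins and cytosolic chaperones were followed as 35 listed genes in 9 RNA sequencing libraries of primary rabbit parathyroid cells. A gene was taken where a row of the expression table carried exactly its symbol, and 31 of the 35 were found in this way, each in 1 row, among 19511 loci. HSPA1A, HSPA1B and DNAJB1, the stress-inducible HSP70 genes and their J-domain partner, were not matched by name. HSPA8, the constitutive HSP70, was listed only together with another gene, as CLMP;HSPA8, and was not counted.

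Cells of the GA+H/R group were pretreated with 1200 µM gallic acid, a plant phenolic acid, for 24 h before 6 h of hypoxia followed by reoxygenation for 6 h, and their genotype label reads IRI with GA. Cells of the H/R group went through the same hypoxia and reoxygenation without gallic acid, and are labelled IRI. Control cells were untreated, labelled WT, and taken at day 0. Each group has 3 libraries. The labels give no animal age, sex or strain and do not name the animals or cultures behind each library, so p-values measure only the spread between libraries, which may be technical. Time in culture differs from the controls as labelled, and cannot be told apart from the treatments. The series asks by which mechanisms gallic acid acts before hypoxia and reoxygenation.

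Chaperones keep other proteins folded. HSP70 proteins grip exposed hydrophobic stretches with the help of J-domain proteins, let go when an exchange factor such as an HSP110 or BAG protein removes the bound nucleotide, and can pass a client on to HSP90, which matures kinases and steroid receptors. Small heat shock proteins hold unfolding proteins without using ATP, the TRiC ring folds actin and tubulin, and HSPD1 with its lid HSPE1 folds proteins inside mitochondria. The transcription factor HSF1 switches on many of these genes when proteins unfold, as happens in heat, low oxygen or oxidative stress.

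Expression is given in FPKM, a fragment count corrected for the length of the transcript and the size of the library. The table holds no read counts, so depth is unknown and counting error cannot be given. Total FPKM averaged 498124 ± 26668 in GA+H/R, 744230 ± 12247 in H/R and 1674788 ± 24633 in control libraries (SD, n = 3 each). On the deposited scale the median of the 10996 loci above the filter lay 1.25 lower on the log2 scale in H/R than in control cells, 0.50 lower in GA+H/R than in H/R cells, and 1.77 lower in GA+H/R than in control cells. Each library was therefore divided by its median ratio to the mean library, and "scaled FPKM" below is relative to this median locus. Where the deposited scale turns a direction, its value is given. Control library 1 correlated with controls 2 and 3 at 0.985 and 0.983, against 0.997 between those 2. All pairs of GA+H/R libraries correlated at 0.985 and all pairs of H/R libraries at 0.992. These values do not tell whether control 1 stands apart or controls 2 and 3 are unusually alike. Several results that control 1 moves are given without it too, and their control spread then rests on controls 2 and 3 alone. Of the parathyroid markers, 10 of 12 were in the table and CASR and GCM2 had no row of their own. PTH, the hormone of the gland, lay at 0.008, 0 and 0.044 FPKM in GA+H/R, 0.014, 0.021 and 0.038 FPKM in H/R and 0.142, 0.129 and 0.097 FPKM in control libraries, and CHGA did not exceed 0.379 FPKM in any library, so the labelled cell type was not borne out by its defining genes. The sum of 8 fibroblast markers was 15271 to 15567 scaled FPKM in GA+H/R, 29558 to 29679 in H/R and 58760 to 98584 in control libraries. COL1A2 and COL3A1 made up most of it, at means of 4169 and 2162 FPKM as deposited in GA+H/R. Of the 7 markers tested, limma called 1 higher and 6 lower in GA+H/R than in control cells (33.7% and 35.5% of all loci). For GA+H/R against H/R it called 0 and 4 (18.7% and 15.2%), and for H/R against control 0 and 6 (29.2% and 28.4%). Without control 1, 2 were higher and 4 lower in GA+H/R than in H/R cells (22.7% and 19.6%). The sum of 9 macrophage markers was 262 to 281 scaled FPKM in GA+H/R, 25.6 to 26.3 in H/R and 2.26 to 31.0 in control libraries, lowest in control 1. MRC1 made up most of the GA+H/R sum, at a mean of 90.7 FPKM as deposited, followed by CD163 at 13.5 and CSF1R at 7.04. CD74 was 0 in all 3 GA+H/R libraries, and CD14, AIF1, TYROBP and C1QC averaged 0.61, 0.22, 0.37 and 0.41 FPKM there. Only 5 of the 9 reached the filter, and limma called all 5 higher in GA+H/R than in H/R and control cells (18.7% and 33.7% of all loci). Summed parathyroid markers spanned 94.5 to 100.1 scaled FPKM in GA+H/R, 89.1 to 97.0 in H/R and 66.4 to 92.3 in control libraries. Endothelial and epithelial sums stayed at or under 1.43 deposited FPKM in every library. As scaled FPKM the endothelial sum was 2.47 to 3.36 in GA+H/R, 0.84 to 0.88 in H/R and 0.26 to 0.35 in control libraries. PECAM1 alone made up the GA+H/R sum, as VWF, KDR and TEK were 0 in all 3 of those libraries. KDR went the other way, at a mean of 0.071 FPKM as deposited in control and 0 in H/R libraries. These sums move with the groups, and their part in the chaperone results was not tested. In such bulk samples, fewer cells of a type and less RNA per cell cannot be told apart.

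Relative to the median locus, most chaperone genes stood higher after hypoxia and reoxygenation than in control cells, and 5 of the 8 TRiC subunits, the mitochondrial chaperonin, HSP90AB1, FKBP4, HSPA4 and DNAJA2 were higher in gallic acid pretreated cells than in H/R cells. BAG3 moved the other way, and the small heat shock proteins were already high in H/R cells. Of the 30 members above the filter on low values, 24 were higher and 2 lower in GA+H/R than in control cells, called by limma at a Benjamini-Hochberg adjusted p under 0.05, where 33.7% of all loci tested were called higher and 35.5% lower. Of the same 30, 11 were higher and 1 lower in GA+H/R than in H/R cells, with 18.7% and 15.2% of all loci, and 18 were higher and 2 lower in H/R than in control cells, with 29.2% and 28.4%. The median member differed by 0.65, 0.26 and 0.33 on the log2 scale in these comparisons, against -0.05, 0.00 and 0.00 for the median of all loci tested. Counted by libraries that did not overlap between groups, 24 members were higher and 2 lower in GA+H/R than in control cells (35.0% and 36.5% of loci), 18 and 2 in GA+H/R than in H/R cells (27.4% and 24.5%), and 18 and 3 in H/R than in control cells (34.1% and 33.0%). Without control 1, limma called 24 higher and 2 lower in GA+H/R than in control cells (34.1% and 34.9% of loci), 15 and 2 in GA+H/R than in H/R cells (22.7% and 19.6%), and 19 and 1 in H/R than in control cells (30.1% and 28.6%). The 3 comparisons share groups and are not independent.

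These directions are relative and turn on the deposited scale. There, 0 members were higher and 29 of 31 lower in GA+H/R than in control cells, with 4.10% and 90.1% of all loci called, and the median member fell less than the median locus, by -1.41 against -1.77. Likewise 0 were higher and 17 lower in GA+H/R than in H/R cells, with 1.69% and 64.3% of loci and medians of -0.33 for members and -0.50 for all loci. In H/R against control cells 1 was higher and 26 lower, with 4.18% and 86.0% of loci and medians of -1.10 and -1.25. With libraries scaled to equal totals, 16, 9 and 11 members were higher and 6, 1 and 4 lower in the 3 comparisons. Of the 10809 loci tested at equal totals, 7887, 3189 and 6535 were called in either direction, and 32.8%, 42.1% and 32.0% of those calls were higher. Over all loci, calls in the higher direction made up 48.7%, 55.2% and 50.7% of calls relative to the median locus, 4.35%, 2.56% and 4.64% as deposited, and 32.8%, 42.1% and 32.0% at equal totals.

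**Figure D1:**
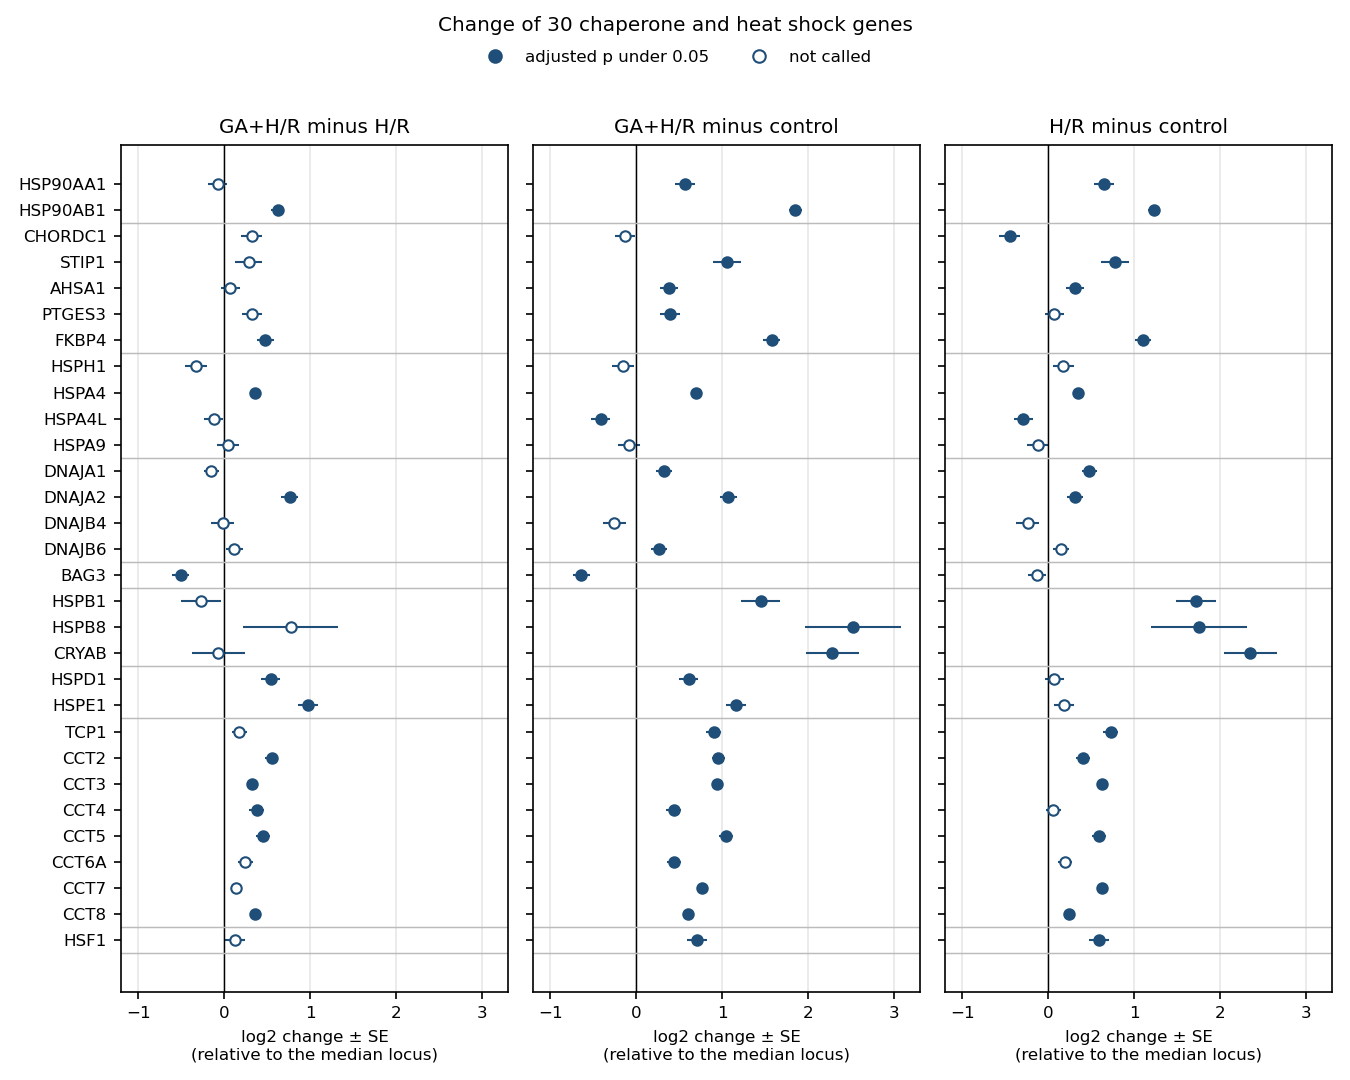
Log2 difference of each of the 30 members tested, relative to the median locus, in the 3 comparisons, with bars of 1 SE from limma and filled points for adjusted p under 0.05. Points lie mostly right of 0 for GA+H/R minus control, where 24 are called higher and BAG3 and HSPA4L lower; as deposited, 29 of 31 members were called lower in that comparison.

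HSP90 is encoded by the stress-inducible HSP90AA1 and the more constitutive HSP90AB1. HSP90AB1 showed the larger differences relative to the median locus, and HSP90AA1 the larger ones as deposited. HSP90AB1 had 521, 492 and 506 scaled FPKM in GA+H/R, 331, 326 and 329.6 scaled FPKM in H/R, and 158, 132 and 131 scaled FPKM in control libraries. The 3 groups did not overlap and followed the order GA+H/R, H/R, control. It was higher by 0.62 ± 0.07 on the log2 scale in GA+H/R than in H/R cells (SE, limma, adjusted p = 4.26e-04), by 1.85 ± 0.07 in GA+H/R than in control cells (adjusted p = 6.37e-08) and by 1.23 ± 0.07 in H/R than in control cells (adjusted p = 1.90e-06). As deposited these turned to -0.04, -0.27 and -0.22, and only the GA+H/R against control difference was called, as lower. HSP90AA1 had 44.2, 47.8 and 46.4 scaled FPKM in GA+H/R, 49.5, 49.3 and 47.7 in H/R and 25.01, 33.4 and 34.7 in control libraries. GA+H/R and H/R libraries overlapped and both lay above every control. Its log2 difference was -0.08 ± 0.12 between GA+H/R and H/R (limma adjusted p = 0.627), 0.57 ± 0.12 between GA+H/R and control (adjusted p = 0.00197) and 0.65 ± 0.12 between H/R and control (adjusted p = 0.00132). As deposited it was lower in all 3, by -0.72, -1.49 and -0.77.

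The co-chaperones of HSP90 load and time its cycle. FKBP4, an immunophilin that carries HSP90 to steroid receptors, had 15.1, 18.4 and 17.1 scaled FPKM in GA+H/R, 11.5, 12.6 and 11.35 in H/R, and 5.01, 4.79 and 5.09 in control libraries. Its groups did not overlap and stood in the same order as those of HSP90AB1. FKBP4 differed by 0.48 ± 0.10 between GA+H/R and H/R (limma adjusted p = 0.00622), 1.58 ± 0.10 between GA+H/R and control (adjusted p = 1.01e-06) and 1.10 ± 0.10 between H/R and control (adjusted p = 1.95e-05). As deposited these were -0.14, -0.33 and -0.19, of which -0.33 was called lower. STIP1, which bridges HSP70 and HSP90, had 7.998, 8.02 and 8.93 scaled FPKM in GA+H/R, 7.34, 5.84 and 6.87 in H/R and 2.498, 3.73 and 4.40 in control libraries. All treated libraries lay above the controls, by 1.06 ± 0.16 for GA+H/R (limma adjusted p = 3.35e-04) and 0.78 ± 0.16 for H/R (adjusted p = 0.00305), while 0.28 ± 0.16 between GA+H/R and H/R was not called (adjusted p = 0.21). As deposited STIP1 was lower than in control cells, by -0.71 and -0.43.

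AHSA1, which speeds the HSP90 ATPase, and PTGES3, the p23 protein that holds the closed form, differed less from control cells than FKBP4 and STIP1 relative to the median locus. As deposited they differed more. AHSA1 was 0.38 higher in GA+H/R than in control cells (limma adjusted p = 0.0112) and 0.31 higher in H/R than in control cells (adjusted p = 0.0345), with 0.07 between GA+H/R and H/R (adjusted p = 0.641). PTGES3 was 0.39 higher in GA+H/R than in control cells (limma adjusted p = 0.0135), with 0.32 between GA+H/R and H/R (adjusted p = 0.0587) and 0.07 between H/R and control (adjusted p = 0.627). As deposited the AHSA1 differences were -1.65 and -1.10 against control, and the PTGES3 difference was -1.69. The H/R call of AHSA1 was lost without control 2, control 3, H/R 2 or H/R 3, at differences of 0.27, 0.29, 0.24 and 0.30 (limma adjusted p = 0.107, 0.0887, 0.122 and 0.0825). The call of PTGES3 was lost without control 3 (limma adjusted p = 0.0511), and its 0.32 above H/R was called without control 1 or GA+H/R 2 (adjusted p = 0.0462 and 0.0259). CHORDC1, an HSP90-binding protein with zinc-binding CHORD domains, was the exception among the co-chaperones, with 73.1, 67.2 and 77.2 scaled FPKM in GA+H/R, 53.4, 59.0 and 61.5 in H/R and 92.3, 82.0 and 66.6 in control libraries. It fell below the controls in H/R cells, by -0.45 ± 0.12 (limma adjusted p = 0.0103) and by -1.89 as deposited, and its GA+H/R libraries lay above those of H/R and overlapped the controls, at 0.32 ± 0.12 from H/R (adjusted p = 0.0697) and -0.13 from control (adjusted p = 0.339). Without control 1 or control 3 the 0.32 above H/R was called (limma adjusted p = 0.0284 and 0.0283), and without control 3 the difference from control was called at -0.26 (adjusted p = 0.0477).

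**Figure D2:**
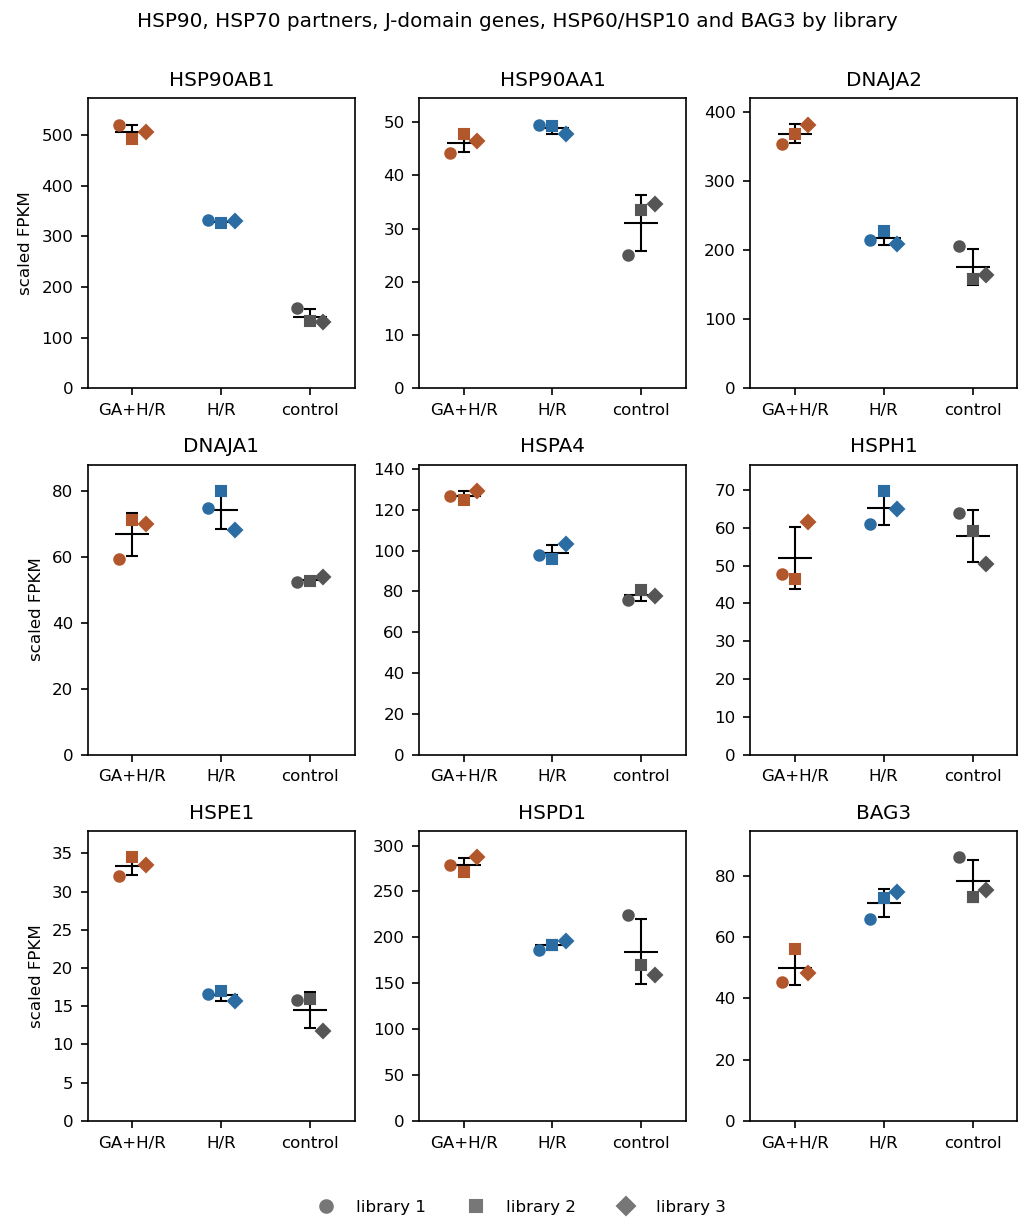
Scaled FPKM of 9 members in each library, with GA+H/R, H/R and control from left to right, a symbol per library, a dash at the mean of 3 and bars of 1 SD. HSP90AB1 stands at 492 to 521 in GA+H/R libraries, above H/R at 326 to 331 and control at 131 to 158, whereas BAG3 is lowest in GA+H/R; the values are relative to the median locus, and as deposited HSP90AB1 differs from H/R by -0.04 on the log2 scale.

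Within the HSP70 family the HSP110 exchange factors divided. HSPA4, a constitutive HSP110, had 127, 125 and 129 scaled FPKM in GA+H/R, 98.0, 96.0 and 103 in H/R and 75.8, 80.8 and 77.6 in control libraries. Its groups did not overlap. It differed by 0.35 ± 0.06 between GA+H/R and H/R (limma adjusted p = 0.0018), 0.69 ± 0.06 between GA+H/R and control (adjusted p = 5.86e-06) and 0.34 ± 0.06 between H/R and control (adjusted p = 8.83e-04). As deposited it differed by -0.30, -1.41 and -1.11, all called lower. HSPH1, the heat-inducible HSP110 (HSP105), had 47.9, 46.6 and 61.5 scaled FPKM in GA+H/R, 60.9, 69.7 and 64.9 in H/R and 64.0, 59.1 and 50.4 in control libraries. Its groups overlapped and it passed in none of the comparisons on this scale, with -0.33 ± 0.13 between GA+H/R and H/R (limma adjusted p = 0.0748), -0.16 between GA+H/R and control (adjusted p = 0.298) and 0.17 between H/R and control (adjusted p = 0.267). Without library 3 of GA+H/R the first of these was called, at -0.46 with an adjusted p of 0.02. HSPA4L, a close relative of HSPA4, fell below the controls in both treated groups, by -0.42 in GA+H/R (limma adjusted p = 0.00734) and -0.29 in H/R cells (adjusted p = 0.0452), with -0.13 between GA+H/R and H/R (adjusted p = 0.399). The H/R call of HSPA4L was lost on leaving out control 1, 2 or 3, H/R 1 or 3, or GA+H/R 2, with limma adjusted p of 0.0967, 0.104, 0.0664, 0.152, 0.101 and 0.0557. As deposited HSPA4L was lower by -2.30 and -1.63 against control. HSPA9, the mitochondrial HSP70, was not called in any pair, at 0.04, -0.08 and -0.12 on the log2 scale (limma adjusted p = 0.829, 0.579 and 0.432 for GA+H/R minus H/R, GA+H/R minus control and H/R minus control), and its control library 1 stood at 346 scaled FPKM beside 242 and 240.1 in controls 2 and 3. Without control 1 the last 2 of these were 0.09 and 0.05, still not called (limma adjusted p = 0.112 and 0.381).

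BAG3, an exchange factor that works with HSP70 and HSPB8 to send damaged proteins to autophagy, fell in gallic acid pretreated cells. It had 45.2, 55.9 and 48.3 scaled FPKM in GA+H/R, 66.0, 72.7 and 74.5 in H/R and 85.9, 73.0 and 75.3 in control libraries. Every GA+H/R library lay below every other library, and H/R and control overlapped. BAG3 was lower by -0.51 ± 0.10 in GA+H/R than in H/R cells (limma adjusted p = 0.00499) and by -0.64 ± 0.10 than in control cells (adjusted p = 3.84e-04), with -0.13 ± 0.10 between H/R and control (adjusted p = 0.283). On the deposited scale BAG3 was lower in all 3, by -1.14, -2.72 and -1.57. The median of all loci was -0.50 for GA+H/R minus H/R on that scale, so a lower gene could not turn there.

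The J-domain proteins, which hand clients to HSP70 and trigger its ATPase, also split by member. DNAJA2 had 354.5, 369 and 382 scaled FPKM in GA+H/R, 215, 228 and 209 in H/R and 206, 158 and 164.5 in control libraries. GA+H/R lay above all other libraries. The log2 difference was 0.76 ± 0.10 between GA+H/R and H/R (limma adjusted p = 5.67e-04), 1.07 ± 0.10 between GA+H/R and control (adjusted p = 1.13e-05) and 0.31 ± 0.10 between H/R and control (adjusted p = 0.0211). As deposited these were 0.10, -1.05 and -1.14, so that DNAJA2 was among the few members not below H/R in GA+H/R cells on that scale, though not called (limma adjusted p = 0.505). The H/R call of DNAJA2 was lost without control 2, control 3 or H/R 2 (limma adjusted p = 0.0746, 0.0698 and 0.0723). DNAJA1, its heat-inducible relative, had 59.4, 71.2 and 69.9 scaled FPKM in GA+H/R, 74.9, 80.05 and 68.2 in H/R and 52.5, 52.8 and 54.1 in control libraries. GA+H/R and H/R overlapped and both lay above the controls, by 0.32 ± 0.09 for GA+H/R (limma adjusted p = 0.0102) and 0.48 ± 0.09 for H/R (adjusted p = 0.00171), with -0.15 ± 0.09 between GA+H/R and H/R (adjusted p = 0.216). As deposited DNAJA1 was lower, by -1.76, -0.96 and -0.80, and at equal totals its GA+H/R difference from control was -0.05, not called. DNAJB6, which restrains aggregation, was called higher only in GA+H/R against control, at 0.26 ± 0.10 (limma adjusted p = 0.0352; -1.74 as deposited and -0.09 at equal totals). That call was lost without control 2, control 3 or any of the 3 GA+H/R libraries, with limma adjusted p of 0.051 to 0.12. DNAJB4 was not called on this scale, at -0.02, -0.26 and -0.24 (limma adjusted p = 0.933, 0.117 and 0.157 for GA+H/R minus H/R, GA+H/R minus control and H/R minus control).

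HSP70 itself could be read only from loci that the table describes as copies, which were picked after values were seen and are no members. Such near-identical loci may share reads, so each value is uncertain. A joined locus described as HSP70-1B, LOC100354037;LOC100353783, had 9.08, 8.40 and 10.65 scaled FPKM in GA+H/R, 20.5, 19.9 and 22.1 in H/R and 7.28, 7.51 and 7.01 in control libraries. The H/R libraries stood apart above both other groups. It was -1.08 ± 0.10 lower in GA+H/R than in H/R cells (limma adjusted p = 1.15e-04; -1.60 as deposited) and 1.40 ± 0.10 higher in H/R than in control cells (adjusted p = 5.57e-06; 0.06 as deposited). Between GA+H/R and control it was 0.32 higher (limma adjusted p = 0.0193; -1.54 as deposited and -0.01 at equal totals), a call lost without control 3 or GA+H/R 3 (adjusted p = 0.0614 and 0.0615). The second locus with this description, LOC100354435, had 1.92, 1.85 and 1.98 scaled FPKM in GA+H/R, 4.12, 4.07 and 4.57 in H/R and 1.88, 1.95 and 1.82 in control libraries. It was -0.85 ± 0.09 lower in GA+H/R than in H/R cells (limma adjusted p = 2.32e-04; -1.09 as deposited) and 0.86 higher in H/R than in control cells (adjusted p = 5.41e-05; -0.22 as deposited), with 0.02 between GA+H/R and control (adjusted p = 0.886). The constitutive HSP70 showed no such peak: CLMP;HSPA8 differed by -0.03, -0.21 and -0.18 (limma adjusted p = 0.843, 0.0778 and 0.135 for GA+H/R minus H/R, GA+H/R minus control and H/R minus control), although without control 1 it was called lower than control in both treated groups, by -0.33 and -0.30. LOC100356572, described as HSC70, was 0.45 higher in GA+H/R and 0.42 higher in H/R than in control cells (limma adjusted p = 0.00325 and 0.00594), and -1.67 and -1.03 as deposited.

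Copies of HSP90 that the table describes followed the named HSP90 genes against the controls. LOC100351785, described as HSP90-beta, had 41.7, 36.6 and 43.7 scaled FPKM in GA+H/R, 36.05, 30.4 and 29.7 in H/R and 6.69, 4.37 and 3.97 in control libraries. All treated libraries lay above every control. It was higher than in control cells by 2.82 ± 0.17 in GA+H/R and 2.48 ± 0.17 in H/R (limma adjusted p = 7.83e-07 and 3.59e-06), and was still higher as deposited, by 0.86 and 1.16. LOC100337756, also HSP90-beta, and LOC103349362, described as HSP90-alpha, were higher in GA+H/R than in control cells by 1.97 and 1.92 (limma adjusted p = 2.99e-07 and 2.36e-05; -0.13 and 0.15 as deposited, neither called).

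Relative to the median locus, the largest differences of the 30 members were those of HSPB8 and CRYAB in GA+H/R against control cells, and those of CRYAB, HSPB8 and HSPB1 in H/R against control cells. HSPB1 (HSP27), which binds unfolding proteins and actin, had 115, 123 and 108 scaled FPKM in GA+H/R, 130.3, 139 and 149 in H/R and 26.3, 54.1 and 50.6 in control libraries. The treated libraries all lay above the controls and H/R lay above GA+H/R without overlap. HSPB1 was higher than in control cells by 1.45 ± 0.23 in GA+H/R (limma adjusted p = 4.27e-04) and 1.72 ± 0.23 in H/R (adjusted p = 2.33e-04), with -0.27 ± 0.23 between GA+H/R and H/R (adjusted p = 0.391). As deposited these were -0.65 (called lower), 0.28 and -0.92 (called lower). Without control 1 the 2 differences from control were 1.12 and 1.39, and the -0.27 below H/R was called (limma adjusted p = 0.0139).

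CRYAB (αB-crystallin), abundant in lens and muscle, had 31.4, 37.1 and 39.0 scaled FPKM in GA+H/R, 41.5, 33.8 and 37.7 in H/R and 12.6, 4.96 and 4.34 in control libraries. GA+H/R and H/R overlapped and both lay above the controls, with control 1 nearest to them. It was higher than in control cells by 2.28 ± 0.31 in GA+H/R (limma adjusted p = 1.48e-04) and 2.35 ± 0.31 in H/R (adjusted p = 2.02e-04), with -0.07 ± 0.31 between GA+H/R and H/R (adjusted p = 0.882). In H/R against control CRYAB was the single member called higher as deposited, by 1.004 (limma adjusted p = 0.0197), while GA+H/R against control gave 0.30, not called. As deposited it had 27.8, 22.7 and 25.3 FPKM in H/R and 24.7, 8.98 and 7.66 FPKM in control libraries. The 2 groups overlapped there, as control 1 lay inside the H/R range.

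HSPB8, the partner of BAG3, had 131, 140.3 and 145 scaled FPKM in GA+H/R, 74.65, 82.5 and 85.5 in H/R and 74.7, 12.2 and 13.4 in control libraries. Control 1 lay inside the H/R range while controls 2 and 3 lay far below, and GA+H/R lay above all other libraries. HSPB8 was higher than in control cells by 2.52 ± 0.56 in GA+H/R (limma adjusted p = 0.00314) and 1.75 ± 0.56 in H/R (adjusted p = 0.0243), with 0.77 ± 0.56 between GA+H/R and H/R (adjusted p = 0.317). Without control 1 these were 3.34, 2.57 and 0.77, all called (limma adjusted p = 7.24e-09, 7.05e-08 and 1.03e-04). The control spread behind these p-values rests on controls 2 and 3, which were closely alike. The H/R call was lost without control 2, control 3 or H/R 1, 2 or 3 (limma adjusted p = 0.0862, 0.0845, 0.0519, 0.0605 and 0.0624). As deposited HSPB8 had 55.1, 59.6 and 61.2 FPKM in GA+H/R, 50.0, 55.4 and 57.4 in H/R and 147, 22.2 and 23.6 in control libraries, with differences of 0.44, 0.33 and 0.11, none called.

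**Figure D3:**
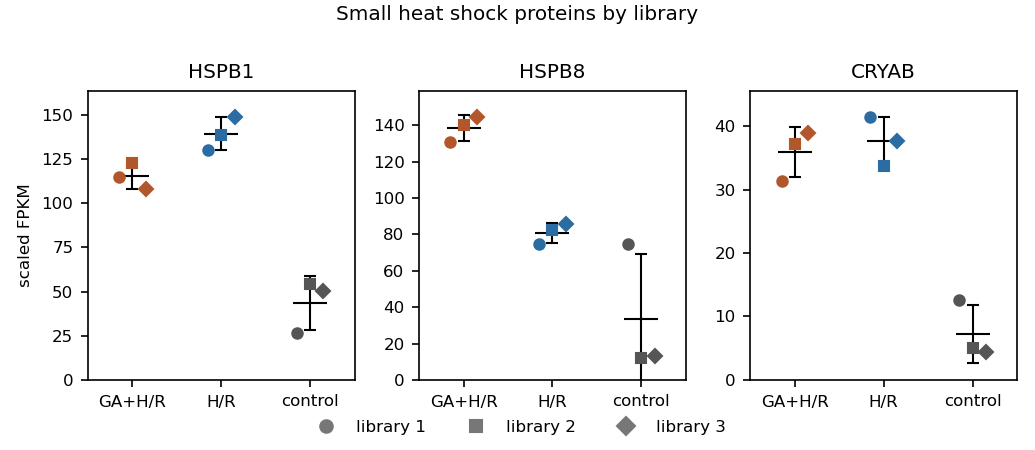
Scaled FPKM of HSPB1, HSPB8 and CRYAB in each library, GA+H/R, H/R and control from left to right, with a symbol per library, a dash at the mean of 3 and bars of 1 SD, which the axis ends at 0 for HSPB8 in control libraries. Control 1 has the lowest HSPB1 and the highest HSPB8 and CRYAB of the controls; HSPB8 lies at 131 to 145 in GA+H/R and at 74.65 to 85.5 in H/R, and as deposited this gap is 0.11 on the log2 scale.

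HSPD1 (HSP60) and HSPE1 (HSP10), which assemble into the mitochondrial folding chamber and are neighbouring coding genes in the rabbit assembly mOryCun1.1, were higher in GA+H/R cells than in both other groups. HSPD1 had 278, 271 and 287 scaled FPKM in GA+H/R, 186, 192 and 196 in H/R and 224.5, 169.7 and 159 in control libraries. HSPE1 had 32.05, 34.5 and 33.5 scaled FPKM in GA+H/R, 16.6, 17.0 and 15.7 in H/R and 15.8, 15.97 and 11.8 in control libraries. For both genes GA+H/R lay above all other libraries and H/R overlapped control. HSPD1 was 0.54 ± 0.11 higher in GA+H/R than in H/R (limma adjusted p = 0.00674) and 0.61 ± 0.11 higher than in control cells (adjusted p = 0.00111), against -0.12 and -1.51 as deposited; at equal totals the difference from control was 0.24, not called. HSPE1 was 0.98 ± 0.12 higher in GA+H/R than in H/R (limma adjusted p = 4.10e-04), the largest of the 30 members in this comparison, and 1.16 ± 0.12 higher than in control cells (adjusted p = 2.26e-05), against 0.33 (not called, adjusted p = 0.0601) and -0.87 as deposited. Between H/R and control, HSPD1 at 0.07 and HSPE1 at 0.18 were not called (limma adjusted p = 0.616 and 0.213), but without control 1 HSPD1 was called at 0.22 (adjusted p = 0.00373), and without control 3 it was -0.03. A further locus described as HSP10, LOC100356803, differed by 0.49, 1.74 and 1.25 (limma adjusted p = 0.0144, 2.20e-06 and 3.51e-05 for GA+H/R minus H/R, GA+H/R minus control and H/R minus control; -0.11, -0.10 and 0.01 as deposited, none called). Its call against H/R was lost without H/R 2 (limma adjusted p = 0.0555), and such copies may share reads with HSPE1. The table's description of the HSPE1 row also covers a second protein, MOB-like phocein.

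TRiC, the ring that encloses newly made actin and tubulin, is built from 8 different subunits and all 8 were measured. All 8 were higher in GA+H/R than in control cells, with differences of 0.43 to 1.04 and a median of 0.83, while as deposited all 8 were lower with a median of -1.25. CCT5 had 231, 225 and 252 scaled FPKM in GA+H/R, 163, 182 and 173 in H/R and 125, 104 and 115 in control libraries. Its groups did not overlap, and the differences were 0.44 ± 0.08 between GA+H/R and H/R, 1.04 ± 0.08 between GA+H/R and control and 0.59 ± 0.08 between H/R and control (limma adjusted p = 0.00367, 5.01e-06 and 2.91e-04). As deposited these were -0.22, -1.07 and -0.86. CCT2 had 160.0, 159.9 and 147 scaled FPKM in GA+H/R, 107, 108 and 103 in H/R and 89.3, 76.0 and 74.9 in control libraries. It stood highest in GA+H/R and lowest in control cells without overlap, and its 0.55 ± 0.08 between GA+H/R and H/R was the largest of the subunits (limma adjusted p = 0.001; -0.11 as deposited).

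Between GA+H/R and H/R, 5 subunits were called higher. These were CCT2, CCT5, CCT4 at 0.38 (limma adjusted p = 0.0111), CCT8 at 0.36 (adjusted p = 8.78e-04) and CCT3 at 0.32 (adjusted p = 0.00304), with -0.23, -0.30 and -0.34 for the last 3 as deposited. CCT6A at 0.24, TCP1 at 0.17 and CCT7 at 0.13 were not called (limma adjusted p = 0.0541, 0.169 and 0.11), and CCT6A was called without control 1 or GA+H/R 2 (adjusted p = 0.0445 and 0.041). Between H/R and control, 6 were called higher, led by TCP1 at 0.72, CCT7 at 0.63 and CCT3 at 0.62 (limma adjusted p = 1.42e-04, 2.39e-05 and 2.26e-05), and CCT4 at 0.06 and CCT6A at 0.20 were not (adjusted p = 0.603 and 0.0767). As deposited TCP1, CCT7 and CCT3 were lower there, by -0.59, -0.82 and -0.82, and CCT8, called at 0.24, turned to -1.21 as deposited and -0.05 at equal totals. A locus described as CCT6A-like, LOC100354286, may share reads with CCT6A and differed by 0.31 between GA+H/R and control (limma adjusted p = 0.00589; -1.73 as deposited and -0.05 at equal totals).

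**Figure D4:**
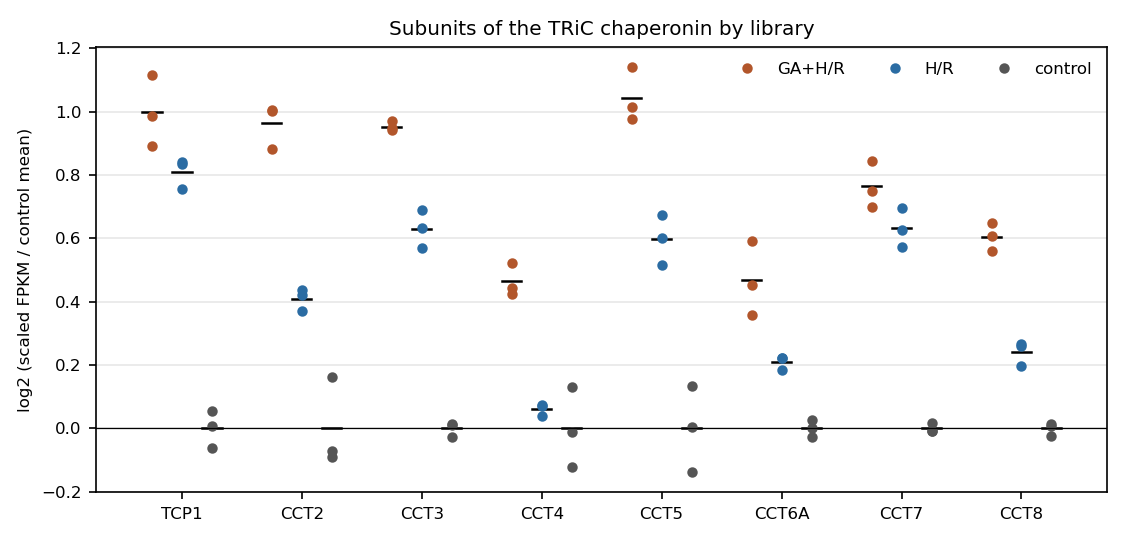
Log2 of the scaled FPKM of each TRiC subunit over its control mean, a point per library with a dash at the mean of 3, for GA+H/R, H/R and control from left to right. Every GA+H/R library lies above every control for all 8 subunits, and H/R lies near control for CCT4; as deposited all 8 subunits are lower in GA+H/R than in control cells.

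HSF1, the master factor of the heat shock response, had 3.62, 3.32 and 2.98 scaled FPKM in GA+H/R, 3.07, 2.86 and 2.95 in H/R and 1.98, 1.55 and 1.41 in control libraries. GA+H/R and H/R overlapped and both lay above the controls, by 0.71 ± 0.11 for GA+H/R (limma adjusted p = 4.42e-04) and 0.59 ± 0.11 for H/R (adjusted p = 0.00199), with 0.12 between GA+H/R and H/R (adjusted p = 0.441). As deposited HSF1 was lower than in control cells, by -0.75 and -0.43. HSF1 is regulated mainly through its protein, which RNA levels do not show. HSF2, a second factor active in development, did not reach the filter on scaled values, and had 0.324, 0.211 and 0.251 FPKM as deposited in GA+H/R, 0.475, 0.520 and 0.706 in H/R and 2.54, 1.53 and 1.62 in control libraries.

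Ratios of 2 members within a library do not depend on how libraries are scaled. The 6 pairs were chosen after values were seen and are given as descriptions, and 3 against 3 libraries cannot give an exact two-sided permutation p below 0.1. HSP90AA1 over HSP90AB1 was 0.0848, 0.0971 and 0.0917 in GA+H/R, 0.149, 0.151 and 0.145 in H/R and 0.158, 0.254 and 0.265 in control libraries. DNAJA1 over DNAJA2 was 0.168, 0.193 and 0.183 in GA+H/R, 0.348, 0.351 and 0.326 in H/R and 0.255, 0.334 and 0.329 in control libraries. HSPH1 over HSPA4 was 0.378, 0.373 and 0.476 in GA+H/R, 0.622, 0.726 and 0.629 in H/R and 0.844, 0.732 and 0.6497 in control libraries. In these 3 pairs, each of a heat-inducible member over a more constitutive relative, every GA+H/R library lay below every other library. HSPB8 over BAG3, the pair that acts together in chaperone-assisted autophagy, was 2.89, 2.51 and 2.99 in GA+H/R, 1.13, 1.13 and 1.15 in H/R and 0.870, 0.168 and 0.178 in control libraries, with no overlap of the groups. HSPE1 over HSPD1 was 0.115, 0.127 and 0.117 in GA+H/R, 0.0892, 0.0885 and 0.0798 in H/R and 0.0702, 0.0941 and 0.0740 in control libraries, so GA+H/R lay above the other groups. CRYAB over HSPB1 was 0.273, 0.303 and 0.360 in GA+H/R, 0.318, 0.243 and 0.253 in H/R and 0.477, 0.0916 and 0.0858 in control libraries, and the 3 groups overlapped. Controls 2 and 3 lay below every treated library and control 1 above all of them. The log2 difference from control was 0.997 for GA+H/R and 0.79 for H/R, and 1.81 and 1.60 without control 1.

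**Figure D5:**
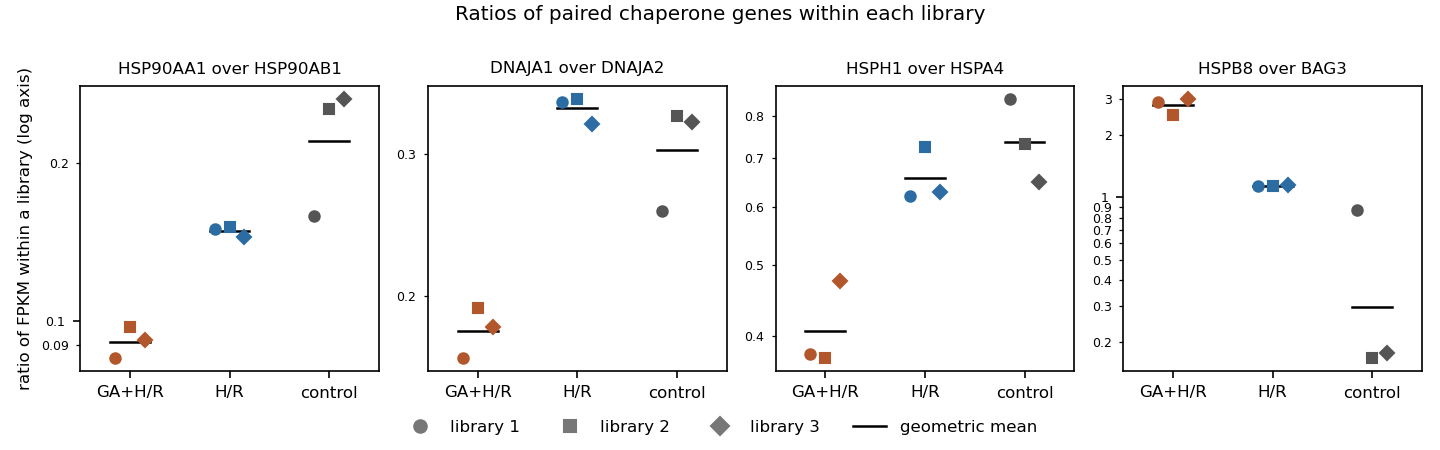
Ratio of the FPKM of a pair of members within each library, for 4 pairs on log axes, with GA+H/R, H/R and control from left to right, a symbol per library and a dash at the geometric mean of 3. HSP90AA1 over HSP90AB1 lies at 0.0848 to 0.0971 in GA+H/R and at 0.145 to 0.151 in H/R, and HSPB8 over BAG3 at 2.51 to 2.99 in GA+H/R and 1.13 to 1.15 in H/R; these ratios are the same on the deposited scale.

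Chaperone genes outside the 35 were counted from lists chosen with earlier results of these data known, and their counts are relative to the median locus. They are to be read against all loci tested, of which 33.7% were called higher and 35.5% lower in GA+H/R than in control cells, 18.7% and 15.2% in GA+H/R than in H/R cells, and 29.2% and 28.4% in H/R than in control cells. Of 15 prefoldin and TRiC cofactor genes, which deliver actin and tubulin to the ring, 9 were called higher and 1 lower in GA+H/R than in control cells, 7 and 0 in GA+H/R than in H/R cells, and 9 and 2 in H/R than in control cells, with medians of 0.99, 0.31 and 0.41 (-0.90, -0.20 and -0.70 as deposited). As deposited 0 of the 15 were higher and 12 lower in GA+H/R than in control cells, 1 and 6 in GA+H/R than in H/R cells, and 0 and 10 in H/R than in control cells. The deposited shares of all loci were 4.10% and 90.1%, 1.69% and 64.3%, and 4.18% and 86.0%. VBP1, a prefoldin subunit, was 0.74 higher in GA+H/R than in H/R cells (limma adjusted p = 2.54e-04; 0.08 as deposited), PFDN4 0.62 higher (adjusted p = 0.00773; -0.01 as deposited), and PFDN1 1.60 higher in GA+H/R than in control cells (adjusted p = 1.61e-07; -0.46 as deposited). HSPBP1, an HSP70 exchange factor, was 0.85 higher in GA+H/R than in H/R (limma adjusted p = 0.00326; 0.21 as deposited) and 1.97 higher than in control cells (adjusted p = 4.34e-06; 0.02 as deposited). Of 12 chaperones of the endoplasmic reticulum, 2 were higher and 8 lower in GA+H/R than in control cells, 2 and 2 in GA+H/R than in H/R cells, and 2 and 6 in H/R than in control cells, with medians of -0.77, -0.18 and -0.63 (-2.82, -0.78 and -2.05 as deposited). PDIA3, a disulfide isomerase, had 186, 184 and 182 scaled FPKM in GA+H/R, 246, 269.5 and 263.5 in H/R and 362.5, 679 and 701 in control libraries. It was lower than in control cells by -1.59 in GA+H/R and -1.10 in H/R (limma adjusted p = 1.53e-04 and 0.00214), and ERO1A, which oxidises these isomerases, by -1.89 and -1.53 (adjusted p = 2.97e-05 and 1.96e-04). As deposited all of these were lower still, by -3.70, -2.56, -3.88 and -2.94. In both genes control 1 lay nearest to the treated libraries. Without it PDIA3 differed from control by -1.90 in GA+H/R and -1.41 in H/R, and ERO1A by -2.16 and -1.80. Also without control 1, 9 of the 12 were lower in both treated groups against control and 6 in GA+H/R against H/R.

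Of 10 other heat-induced genes, 6 were higher and 4 lower in GA+H/R than in control cells, 1 and 2 in GA+H/R than in H/R cells, and 6 and 2 in H/R than in control cells, with medians of 0.68, -0.31 and 0.56 (-1.14, -0.59 and -0.76 as deposited). Without control 1, 2 were higher and 6 lower in GA+H/R than in H/R cells, and 6 and 3 in H/R than in control cells. RGS2, a brake on G protein signalling, had 11.2, 7.15 and 10.5 scaled FPKM in GA+H/R, 16.7, 15.9 and 17.4 in H/R and 3.53, 4.86 and 3.45 in control libraries. Its groups did not overlap and H/R was highest, at -0.76 for GA+H/R minus H/R and 1.85 for H/R minus control (limma adjusted p = 0.00923 and 2.50e-05). As deposited these were -1.28 and 0.57, and only the second could have turned, as that scale lowers both. HSPB7, a small heat shock protein of muscle, was 1.58 higher in H/R than in control cells (limma adjusted p = 0.00607; 0.18 as deposited), with control 1 at 33.2 scaled FPKM and controls 2 and 3 at 10.1 and 10.3. Without control 1 the HSPB7 difference was 2.12. Of the other lists, 7 of 15 HSP70-related genes were higher and 3 lower in GA+H/R than in control cells, 7 and 4 of 22 J-domain genes, 8 and 4 of 18 HSP90-related genes, 6 and 2 of 10 mitochondrial chaperones and proteases, 4 and 2 of 8 HSF regulators, and 1 and 0 of 2 small heat shock proteins. As deposited 0 genes of these 6 lists were higher in that comparison, and 13 of 15, 23 of 23, 18 of 18, 9 of 10, 8 of 8 and 2 of 2 were lower. Of all loci, 4.10% were higher and 90.1% lower there. Between GA+H/R and H/R, the counts of these 6 lists were 4 and 0, 5 and 3, 3 and 1, 2 and 0, 1 and 2, and 0 and 0, and between H/R and control they were 5 and 3, 7 and 5, 7 and 6, 5 and 2, 3 and 3, and 2 and 0. Without control 1 the HSP90-related counts between H/R and control were 8 and 3, those of mitochondrial chaperones and proteases 5 and 1, and those of HSF regulators between GA+H/R and H/R 2 and 2. Between GA+H/R and H/R, 1 small heat shock protein and 1 HSP70-related gene were then also lower, and both small heat shock proteins were higher in GA+H/R than in control cells. Among loci outside the 35 that carry the table's term unfolded protein binding, 20 of 41 tested were higher and 10 lower in GA+H/R than in control cells, with a median of 0.32. For protein folding 32 of 74 were higher and 24 lower with a median of 0.06, and for chaperone binding 17 of 45 were higher and 11 lower with a median of 0.21. Of all loci, 33.7% were higher and 35.5% lower. Between GA+H/R and H/R these terms had 10 and 7, 14 and 9, and 7 and 2 (18.7% and 15.2% of loci). Between H/R and control they had 19 and 8, 26 and 18, and 14 and 12 (29.2% and 28.4%). Extracellular exosome, a wide term, had 592 of 1365 higher and 439 lower in GA+H/R than in control cells. All are relative to the median locus, the only scale on which terms were counted.

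The spread between libraries of a group was smaller for the members than for loci in general. The median coefficient of variation of the 30 members was 6.09% in GA+H/R, 4.41% in H/R and 9.66% in control libraries, against 11.2%, 8.32% and 11.5% over the 10956 loci tested. The members were not matched to those loci by level.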

How the data were processed

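RNA of rabbit primary cells was sequenced in 9 libraries, 3 in each of 3 groups. Per the labels' protocols, total RNA was purified with an RNA Quick Purification kit and libraries were made with a TruePrep kit. The authors deposited FPKM per locus and library, per the file headers, for 19511 loci, along with a p-value and q-value of a single test across the groups, which the authors deposited and which was not used here. The sources used here do not name an aligner or a counting tool, and do not say how libraries were scaled. The submitters' processing notes name the mouse builds GRCm38 and mm10, while the table holds rabbit transcripts, and coordinates are therefore left out.

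For every locus at 1 FPKM or more in all 9 libraries (8448 loci), the ratio to the 9-library mean was taken, and the median ratio of a library was its divisor. The 10956 loci that reached a scaled FPKM of 1 in 3 or more libraries were fitted as log2(scaled FPKM + 1) with limma 3.58.1 in R 4.3.3, with a mean per group and moderated, trended and robust variances, and two-sided p-values were adjusted by Benjamini-Hochberg over all of them. Differences are on this scale with a pseudocount of 1, which understates changes of low genes. The fit was run on simulated data in which few loci changed and libraries differed only by a factor. That run cannot judge the choice of scale. Alternatives were the deposited scale, equal totals, quantile normalization, a pseudocount of 0.1, no filter, only the 2 groups compared, plain moderation, a replicate block and leaving out each library.

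The members and lists were chosen with earlier results of these data known. All members may be named; of other chaperones, up to 4 per direction and comparison qualified, being called, at 10 FPKM or more in the higher group and without overlap, ordered by size. Copy loci were named by the table's descriptions where their mean reached 2 FPKM.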

Additional observations from a re-analysis of the deposited data

How the results depend on the processing

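The scale of the libraries moved the counts most. As deposited, 7255 loci were called in GA+H/R minus H/R and 9922 in H/R minus control, against 3712 and 6315 relative to the median locus, and members called higher and lower numbered 0 and 17 in GA+H/R minus H/R, 0 and 29 in GA+H/R minus control, and 1 and 26 in H/R minus control. At equal totals, 6 members were lower in GA+H/R minus control, and 11 were higher and 4 lower in H/R minus control. Of 10809 loci, 7887 and 6535 were called in these 2 comparisons, and 32.8% and 32.0% of those calls were higher. Members lower in GA+H/R minus H/R numbered 2 with quantile normalization and 2 with only the 2 groups compared, and members lower in H/R minus control numbered 1 with no filter. Over all loci these settings called 3781 of 10693, 4086 of 10680 and 6659 of 19511, and 51.8%, 54.7% and 51.7% of those calls were higher. Same-numbered libraries showed no shared deviation from their group means, at correlations of -0.0177 to 0.0261. These correlations cannot tell whether same-numbered libraries came from the same animal or culture. With the replicate number as a block, 3385, 7441 and 6142 loci were called in GA+H/R minus H/R, GA+H/R minus control and H/R minus control, and 1 member was lower in H/R minus control. Leaving out 1 library gave 2705 to 4590, 6869 to 7484 and 5464 to 6367 loci, 11 to 15, 22 to 24 and 15 to 19 members higher, and 1 to 2, 2 to 3 and 1 to 2 lower in these comparisons. The cause of these shifts was not tested. The sum of rows sharing a symbol gave no value because 0 members had several rows. Depth is unknown, which limits low genes such as HSF1 and HSF2.

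On the deposited scale, the log2 differences of GA+H/R minus H/R that turned round were HSP90AB1 -0.0431, DNAJB6 -0.50, HSPD1 -0.12, HSPA4 -0.30, HSPA9 -0.62, CHORDC1 -0.33, STIP1 -0.28, AHSA1 -0.55, HSF1 -0.32, TCP1 -0.41, CCT2 -0.11, CCT3 -0.34, CCT4 -0.23, CCT5 -0.22, CCT6A -0.36, CCT7 -0.53, CCT8 -0.30, PTGES3 -0.33, FKBP4 -0.14, LOC100356572 -0.64, LOC100354286 -0.39, LOC100351785 -0.30, LOC100337756 -0.21, LOC103349362 -0.0756, LOC100356803 -0.11, PFDN4 -0.00946. On the deposited scale, the log2 differences of GA+H/R minus control that turned round were HSP90AA1 -1.49, HSP90AB1 -0.27, DNAJA1 -1.76, DNAJA2 -1.05, DNAJB6 -1.74, HSPB1 -0.65, HSPD1 -1.51, HSPE1 -0.87, HSPA4 -1.41, STIP1 -0.71, AHSA1 -1.65, HSF1 -0.75, TCP1 -1.001, CCT2 -1.15, CCT3 -1.16, CCT4 -1.53, CCT5 -1.07, CCT6A -1.53, CCT7 -1.35, CCT8 -1.51, PTGES3 -1.69, FKBP4 -0.33, LOC100354435 -1.31, LOC100354037;LOC100353783 -1.54, LOC100356572 -1.67, LOC100354286 -1.73, LOC100337756 -0.13, LOC100356803 -0.099, PHB2 -0.40, DNAJC4 -0.34, PFDN1 -0.46. On the deposited scale, the log2 differences of H/R minus control that turned round were HSP90AA1 -0.77, HSP90AB1 -0.22, DNAJA1 -0.96, DNAJA2 -1.14, DNAJB6 -1.24, HSPH1 -1.26, HSPD1 -1.38, HSPE1 -1.196, HSPA4 -1.11, STIP1 -0.43, AHSA1 -1.10, HSF1 -0.43, TCP1 -0.59, CCT2 -1.04, CCT3 -0.82, CCT4 -1.30, CCT5 -0.86, CCT6A -1.17, CCT7 -0.82, CCT8 -1.21, PTGES3 -1.37, FKBP4 -0.19, LOC100354435 -0.22, LOC100356572 -1.03, LOC100354286 -1.34. At equal totals, the log2 differences of GA+H/R minus H/R that turned round were HSPA9 -0.0437, AHSA1 -0.011, LOC100356572 -0.0595. At equal totals, the log2 differences of GA+H/R minus control that turned round were DNAJA1 -0.0459, DNAJB6 -0.0929, LOC100354435 -0.23, LOC100354037;LOC100353783 -0.012, LOC100354286 -0.0514. At equal totals, the log2 differences of H/R minus control that turned round were DNAJB6 -0.13, HSPH1 -0.11, HSPD1 -0.22, HSPE1 -0.0919, CCT4 -0.21, CCT6A -0.0745, CCT8 -0.0478, PTGES3 -0.21, LOC100354286 -0.21. With quantile normalization, the log2 differences of GA+H/R minus H/R that turned round were HSPA9 -0.0551, LOC100356572 -0.00247. With quantile normalization, the log2 differences of GA+H/R minus control that turned round were HSPA9 0.0647, LOC100354435 -0.16. With quantile normalization, the log2 differences of H/R minus control that turned round were HSPA9 0.12, CCT4 -0.082. Leaving out 1 library turned round values that were not called with all 9 libraries, with ranges of -0.0265 to 0.22 for HSPD1 in H/R minus control, -0.21 to 0.0495 for HSPA9 in H/R minus control, -0.00308 to 0.14 for PTGES3 in H/R minus control, -0.092 to 0.11 for DNAJB4 in GA+H/R minus H/R, -0.14 to 0.0208 for CRYAB in GA+H/R minus H/R, -0.00582 to 0.15 for AHSA1 in GA+H/R minus H/R, -0.17 to 0.0901 for HSPA9 in GA+H/R minus control, -0.00139 to 0.0327 for LOC100354435 in GA+H/R minus control.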
